A study of Mus musculus with 11 samples.

Results

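RNA-seq of the mouse fibroblast line NIH/3T3, long established in culture from embryos, compared a line labelled as a Sox5 knockout with wild-type (WT) cells. The comparison took the 3 libraries labelled Sox5 KO and the 2 labelled WT, 5 of the 11 libraries of the study, and covered all 13332 of 21684 listed genes that passed the expression filter. Every group, the Xap5 KO and Nono KO lines with 3 libraries each included, had been kept without serum for 24 h, a state in which these fibroblasts leave the cell cycle and grow a primary cilium. WT cells carried no named change, Sox5 KO cells were labelled as a knockout of Sox5, and no age, second allele or added agent was named for either. The labels name no clones, so a difference between the groups cannot be told apart from a difference between 1 knockout line and the parental line, and no label says that replicates were separate cultures. P-values therefore measure only the spread between these libraries, which may be technical.

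Sox5 encodes a transcription factor of the SoxD group, which binds DNA through an HMG box and has no activation domain of its own. It is best known in cartilage, where it works with Sox6 and Sox9 on matrix genes, and it also acts in neural and glial cells. Fibroblasts in culture make collagen-rich matrix, respond to TGF-beta by raising smooth muscle contractile genes, and, once the lipoproteins of serum are withdrawn, raise their own sterol synthesis.

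The depth was 37795093 and 41468521 counts in the WT libraries and 30205878 to 32788225 in the Sox5 KO libraries, and mitochondrial genes took 6.06% to 6.92% of the counts in these 5. Levels are given as CPM, counts relative to the library total after TMM scaling. A gene was called when the edgeR quasi-likelihood test gave it a p under 0.05 after Benjamini-Hochberg adjustment. Of 10 fibroblast markers 7 were called higher and 2 lower in Sox5 KO, and the list summed to 24373 and 24429 CPM in WT and to 21342 to 21966 CPM in Sox5 KO. Markers of epithelial and endothelial cells summed to at most 0.744 CPM in any of the 5 libraries, and those of blood cells to at most 11.7 CPM. Summed markers of neural cells went from 12.4 and 16.5 CPM to 0.804, 0.949 and 1.28 CPM. Map2, a protein of neuronal microtubules, held 10.8 and 12.4 CPM of the WT sums. Summed adipocyte markers went from 11.8 and 13.2 CPM in WT to 350.5, 408 and 386 CPM in Sox5 KO, nearly all of it Lpl (10.2 and 12.2 CPM in WT and at 350.4, 408 and 386 CPM in Sox5 KO), which encodes the lipase that frees fatty acids from lipoproteins. Of the 3 adipocyte markers tested, only Lpl was called higher, while 1 was called lower, from a WT mean of 1.2 CPM to 0.121 CPM in Sox5 KO, so the list as a whole had no common direction. The adipocyte genes Adipoq, Cebpa and Plin1 were below the expression filter.

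Sox5 itself, a gene of chromosome 6 with the identifier ENSMUSG00000041540, stood at 49.7 and 45.9 CPM in WT and at 12.6, 13.9 and 13.9 CPM in Sox5 KO. Both WT libraries lay above all 3 Sox5 KO libraries, and the gene had a log2 fold change of -1.83 (SE 0.123, edgeR adjusted p = 4.65e-11). Sox5 RNA was lower than in WT in the other lines too, with means of 13.7 CPM in Xap5 KO and 7.78 CPM in Nono KO, so its level alone did not single out the Sox5 KO libraries. Whether the counting used strand is not given in the sources used here, so reads cannot be divided for sure between overlapping genes. Exons overlap those of another gene for Sox5, Map2, Tm7sf2, Fdps, Ddit3, Cars, Aars, Tagln, Vcl, Rps27a, Nop56, Polr1a, mt-Nd5, mt-Co1, Hk1, Gapdh, Ephx1, Gstz1, Gstcd, Akr1c14, Spp1, Gbp2, Plk1, Ccnd1, Cdkn1a, Sox4, Trps1, Hoxa3, Chd4, Wnt5a, Pdgfra, Plxna4, Notch2, Jun, Dusp1, Cep290, Gas1, Col4a1, Thbs1, Fn1, Lama2, Timp3, Ltbp2, Ctsd, Bax, Igf2, Brinp3, Stc1, Glipr1, Naalad2, Ace and Adgrg6, and their values are uncertain to that extent. Fam50a, the mouse symbol of the gene the labels call Xap5, and Nono were not reduced in Sox5 KO: their log2 fold changes were 0.77 and 0.31.

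In Sox5 KO, 4079 genes were called higher than in WT (30.6% of those tested) and 4042 lower (30.3%). A change of at least 2-fold was called for 1106 genes upwards (8.30%) and 1183 downwards (8.87%). Since 60.9% of all genes were called either way, a count within a gene group has meaning only beside these shares. The share of all tested genes whose groups did not overlap is not given here. Where groups are said not to overlap, this describes the named genes only and does not set them apart.

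The direction of change followed transcript length. Among the decile of genes with the shortest longest transcripts (median 1073 bases), 51.7% were called higher and 5.86% lower, with a median log2 fold change of 0.58. Among the decile with the longest (median 8262 bases), 10.2% were called higher and 67.2% lower, with a median of -0.57. The slope of log2 level on log2 length, relative to the WT mean, was -0.38, -0.37 and -0.33 in the 3 Sox5 KO libraries, against -0.10 to -0.07 in the 6 libraries of the other knockouts and 0 in both WT libraries. Across 13293 genes, which are not independent replicates, Spearman's rho of the log2 fold change was -0.37 with length and 0.07 with GC content.

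**Figure D1:**
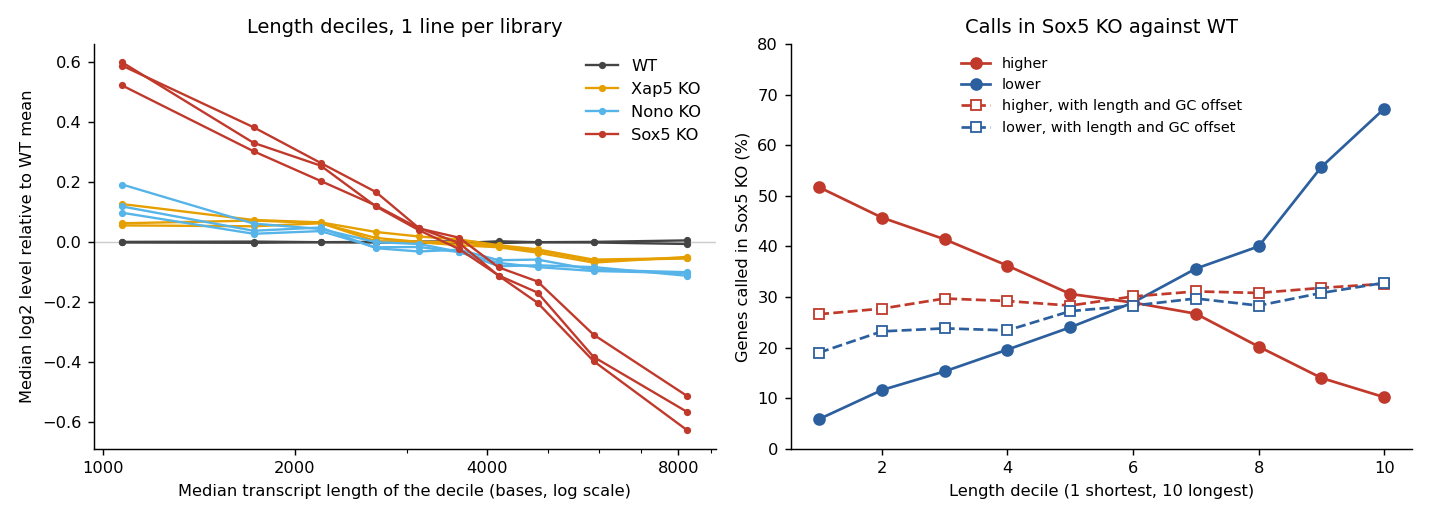
Left, median log2 level relative to the WT mean (y axis) against the median transcript length of each decile of the tested genes (x axis, bases, log scale), 1 line per library. The 3 Sox5 KO lines run from 0.52 to 0.60 in the shortest decile to below -0.5 in the longest, while the other knockouts stay within 0.2 of 0. Right, percent of genes called higher or lower in Sox5 KO by length decile, without (filled circles) and with (open squares) an offset for length and GC content.

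The trend and the group cannot be told apart, and its part in a result was not tested. Each result was also fitted with an offset that removes, in every library, the smooth trend of level on length and GC content. With the offset, 3977 genes were called higher (29.8%) and 3547 lower (26.6%), 56.4% either way, the slope was -0.03, and the shares in the shortest decile became 26.6% higher and 19% lower. Of the genes called without the offset, 3199 of the higher (78.4%) and 2984 of the lower (73.8%) kept their call and direction. A call in the opposite direction was seen with the offset for 28 of the higher and 174 of the lower genes. Values from this fit are named below as values with the offset. The median of a list is the median log2 fold change of its tested members, and a log2 unit is a 2-fold change.

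Whole chromosomes also shifted in Sox5 KO. The median log2 fold change over the 447 tested genes of chromosome 12 was -0.75, and 4.25% of them were called higher and 73.4% lower. With the length offset this median was -0.72. Chromosomes 6, 10 and 4 had medians of -0.35, -0.32 and -0.25, and chromosomes 19 and 8 had medians of 0.39 and 0.24. On chromosome Y, 9 of 9 tested genes fell. The other knockouts were at the same low level for this chromosome: Uty, a Y-linked histone demethylase gene, stood at 34.2 and 34.8 CPM in WT and at no more than 0.0487 CPM in any of the 9 knockout libraries. Whole chromosomes stood off the WT level in the other knockouts too. In Xap5 KO the median log2 level of chromosome 10, relative to the WT mean, was -0.48 to -0.46, lower than in Sox5 KO, and in Nono KO that of chromosome 9 was 0.34 to 0.37. For chromosome 12 the medians were -0.17 to -0.12 in Xap5 KO and -0.01 to 0.02 in Nono KO. NIH/3T3 cells carry an abnormal number of chromosomes as background, and copy number was not measured here. For a gene of chromosome 12, the log2 fold change relative to the chromosome's median is given as well.

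**Figure D2:**
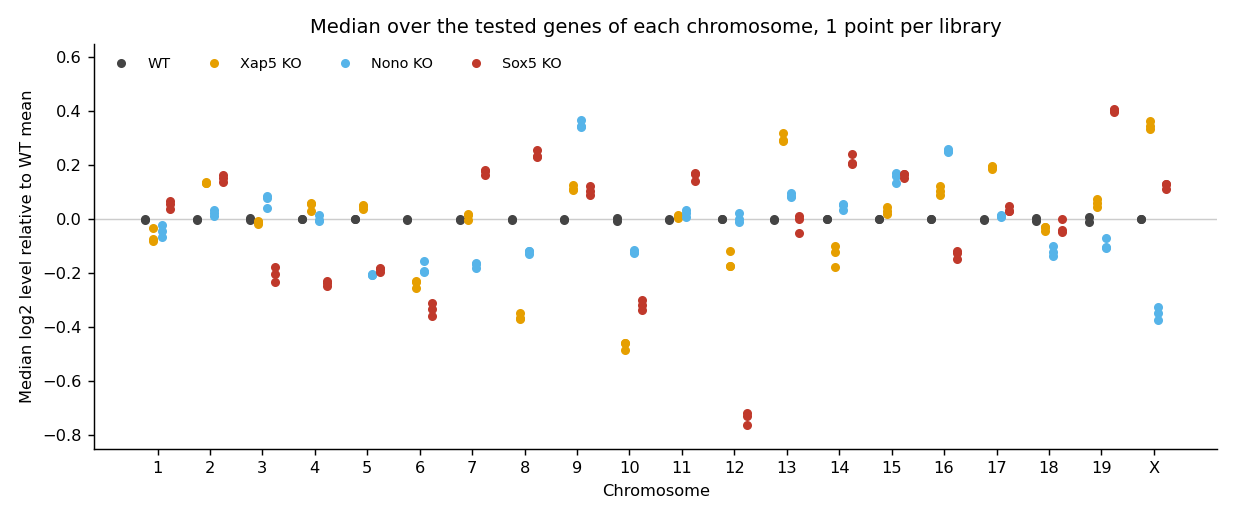
Median log2 level relative to the WT mean over the tested genes of each chromosome (y axis), 1 point per library, with chromosomes on the x axis. Chromosome Y is not drawn. The 3 Sox5 KO libraries sit within 0.07 of each other on every chromosome, lowest on chromosome 12 and highest on chromosome 19.

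The sterol synthesis pathway rose as a whole. All 23 tested genes of the list were called higher in Sox5 KO, 12 of them at least 2-fold, with a median log2 fold change of 1.01. With the length offset all 23 were again called higher and the median was 0.99, against -0.01 and 0.01 over all tested genes without and with the offset. These genes encode the enzymes from acetyl-CoA to cholesterol and the proteins that sense and import sterols, and the transcription factor SREBP2 is known to drive them from promoters that often hold a CCAAT box beside its own site.

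Dhcr7, which makes the last step to cholesterol, stood at 23.3 and 26.4 CPM in WT and at 85.3, 92.8 and 87.2 CPM in Sox5 KO. No Sox5 KO library came near the WT libraries, and the gene had a log2 fold change of 1.83 (SE 0.0917, edgeR adjusted p = 3.88e-13). Tm7sf2, a sterol reductase of the same branch, stood at 14.1 and 11.3 CPM in WT and at 43.7, 45.7 and 42.8 CPM in Sox5 KO (log2 fold change 1.80 on the log2 scale, SE 0.14). Ebp, the sterol isomerase, stood at 20.7 and 23.8 CPM in WT and at 69.4, 76 and 64.5 CPM in Sox5 KO (log2 fold change 1.65, SE 0.102). No library of either group overlapped the other group for these 3 late enzymes. Fdps, which makes farnesyl diphosphate, rose by 1.56 on the log2 scale, and Sqle, which oxidises squalene, by 1.38 log2 units. Srebf2, which encodes SREBP2, rose by 0.34 log2 units (0.67 with the length offset).

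Promoter sequences from RefSeq (mouse build GRCm38.p6) matched 16 of the 23 sterol genes. In the 250 bases before an annotated start, all 16 held the letters CCAAT on either strand, against 41% of the 10396 tested genes with a promoter in the table and 37.5% of all 27025 genes in it. The windows around the match nearest the start are shown for 3 sterol genes because their promoters share this motif, which is in capitals.
Dhcr7: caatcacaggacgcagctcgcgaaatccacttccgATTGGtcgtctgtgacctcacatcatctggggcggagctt
Msmo1: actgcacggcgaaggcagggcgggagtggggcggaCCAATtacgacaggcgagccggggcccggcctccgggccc
Mvd: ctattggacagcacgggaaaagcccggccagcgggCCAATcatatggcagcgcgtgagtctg
They lie at chr7:143830130-143830204 (plus strand), chr8:64733594-64733668 (minus strand) and chr8:122443423-122443484 (minus strand), with the motif starting 49, 55 and 27 bases before the start. Dhcr7 shows the motif's reverse complement, and Mvd holds a further copy at the left of its window. Msmo1, the methylsterol oxidase, rose by 1.40 on the log2 scale and Mvd, the mevalonate decarboxylase, by 1.25. A match describes letters only. The motif is common, and its matches overlapped those of the CArG box described below in 72 promoters of the table.

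Genes of amino acid supply and tRNA charging rose as well. Of 26 tested genes of the ATF4 amino acid response, 21 were called higher and 2 lower, with a median log2 fold change of 1.35 (1.18 with the length offset, when 21 were higher and 1 lower). ATF4 is the transcription factor whose translation increases when amino acids run short, and its targets make serine, asparagine and proline and carry amino acids into the cell. Of 23 cytosolic aminoacyl-tRNA synthetases, which load tRNAs, 22 were called higher and 1 lower (median 0.68, or 0.56 with the offset).

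Atf4 stood at 163 and 164 CPM in WT and at 423, 409 and 393 CPM in Sox5 KO and had a log2 fold change of 1.32 (SE 0.0593, edgeR adjusted p = 7.7e-14). Psat1, an enzyme of serine synthesis, stood at 68.3 and 60.5 CPM in WT and at 424, 401 and 383 CPM in Sox5 KO (log2 fold change 2.64, SE 0.0756). Slc7a5, the large neutral amino acid carrier, stood at 17.4 and 16.6 CPM in WT and at 96.5, 96.4 and 88.2 CPM in Sox5 KO (log2 fold change 2.46, SE 0.0846). In each of the 3 the lowest Sox5 KO library was above the highest WT library by more than 2-fold. Chac1, which degrades glutathione, rose by 2.80 log2 units, and Stc2, a secreted glycoprotein, by 2.55 log2 units. The members that did not follow were Slc7a3, a cationic amino acid carrier, with a log2 fold change of -1.35 (SE 0.326, edgeR adjusted p = 0.0012), and Vldlr, a lipoprotein receptor, which was called lower at a log2 fold change of -0.66 and was at -0.11 and not called with the length offset. Ddit3, the stress factor CHOP, was called at a log2 fold change of 0.58 but at -0.06 and not called with the offset. Slc7a11, the cystine carrier with a long transcript, went the other way, from a log2 fold change of 0.10 and no call to 0.74 and a call with the offset.

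Among the synthetases, Cars stood at 39.9 and 39.8 CPM in WT and at 120.4, 130.2 and 119.9 CPM in Sox5 KO and had a log2 fold change of 1.63 (SE 0.0723, edgeR adjusted p = 6.29e-14). Nars rose by 1.31 log2 units, Aars by 1.09 log2 units and Iars by 0.91 log2 units, the enzymes for asparagine, alanine and isoleucine. The single fall was Wars1, for tryptophan, at a log2 fold change of -0.66 (SE 0.0691). Wars1 lies on chromosome 12, and relative to that chromosome's median its log2 fold change was 0.11 and not called.

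The letters TTGCATCA, a form of the composite site that ATF4 binds with C/EBP partners, occurred on either strand before the start in 6 of 23 ATF4-list genes with a promoter, against 0.712% of tested genes and 0.918% of all genes in the table. The windows of 3 of them are printed to show the shared motif, in capitals.
Chac1: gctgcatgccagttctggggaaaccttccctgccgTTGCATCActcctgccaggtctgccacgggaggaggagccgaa
Nupr1: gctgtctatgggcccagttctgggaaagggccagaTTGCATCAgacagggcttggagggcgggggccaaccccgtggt
Pycr1: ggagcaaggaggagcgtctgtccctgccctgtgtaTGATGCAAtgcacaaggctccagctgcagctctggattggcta
They lie at chr2:119351014-119351091 (plus strand), chr7:126625538-126625615 (minus strand) and chr11:120643809-120643886 (minus strand), the motif starting 193, 110 and 103 bases before the start, in Pycr1 as its reverse complement. No match overlapped a match of the other motifs searched. Nupr1, a stress-induced chromatin protein, stood at 11.5 and 12.2 CPM in WT and at 42.8, 47.2 and 44.1 CPM in Sox5 KO and Pycr1, of proline synthesis, at 5.43 and 5.08 CPM in WT and at 19, 16.5 and 14.4 CPM in Sox5 KO, rises of 1.91 and 1.66 with no overlap between groups.

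Contractile genes of smooth muscle and myofibroblasts were higher for the most part. Of 26 tested, 18 were called higher, 14 of them at least 2-fold, and 3 lower, with a median of 1.08 (1.09 with the length offset). Acta2, smooth muscle actin, stood at 139.7 and 149 CPM in WT and at 2823, 3018 and 2679.8 CPM in Sox5 KO, a log2 fold change of 4.30 (SE 0.111, edgeR adjusted p = 2.49e-15). Tagln, an actin-binding protein, stood at 13.6 and 14.6 CPM in WT and at 236, 239 and 226 CPM in Sox5 KO (log2 fold change 4.05, SE 0.12). Lmod1, which starts actin filaments, stood at 0.794 and 1.04 CPM in WT and at 23.6, 31.2 and 29.4 CPM in Sox5 KO (log2 fold change 4.92, SE 0.197). The Sox5 KO libraries of all 3 genes were more than 10 times the WT libraries. Against this, Csrp2, a LIM protein of smooth muscle, fell from 46.9 ± 1.33 CPM in WT (SD, n = 2) to 12.3 ± 0.44 CPM in Sox5 KO (SD, n = 3) (log2 fold change -1.94). The contractile filament regulator Cnn1 had at most 0.198 CPM in any of the 5 libraries. Acta2 was also high in the other knockouts, with means of 1635 CPM in Xap5 KO and 2168 CPM in Nono KO.

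**Figure D3:**
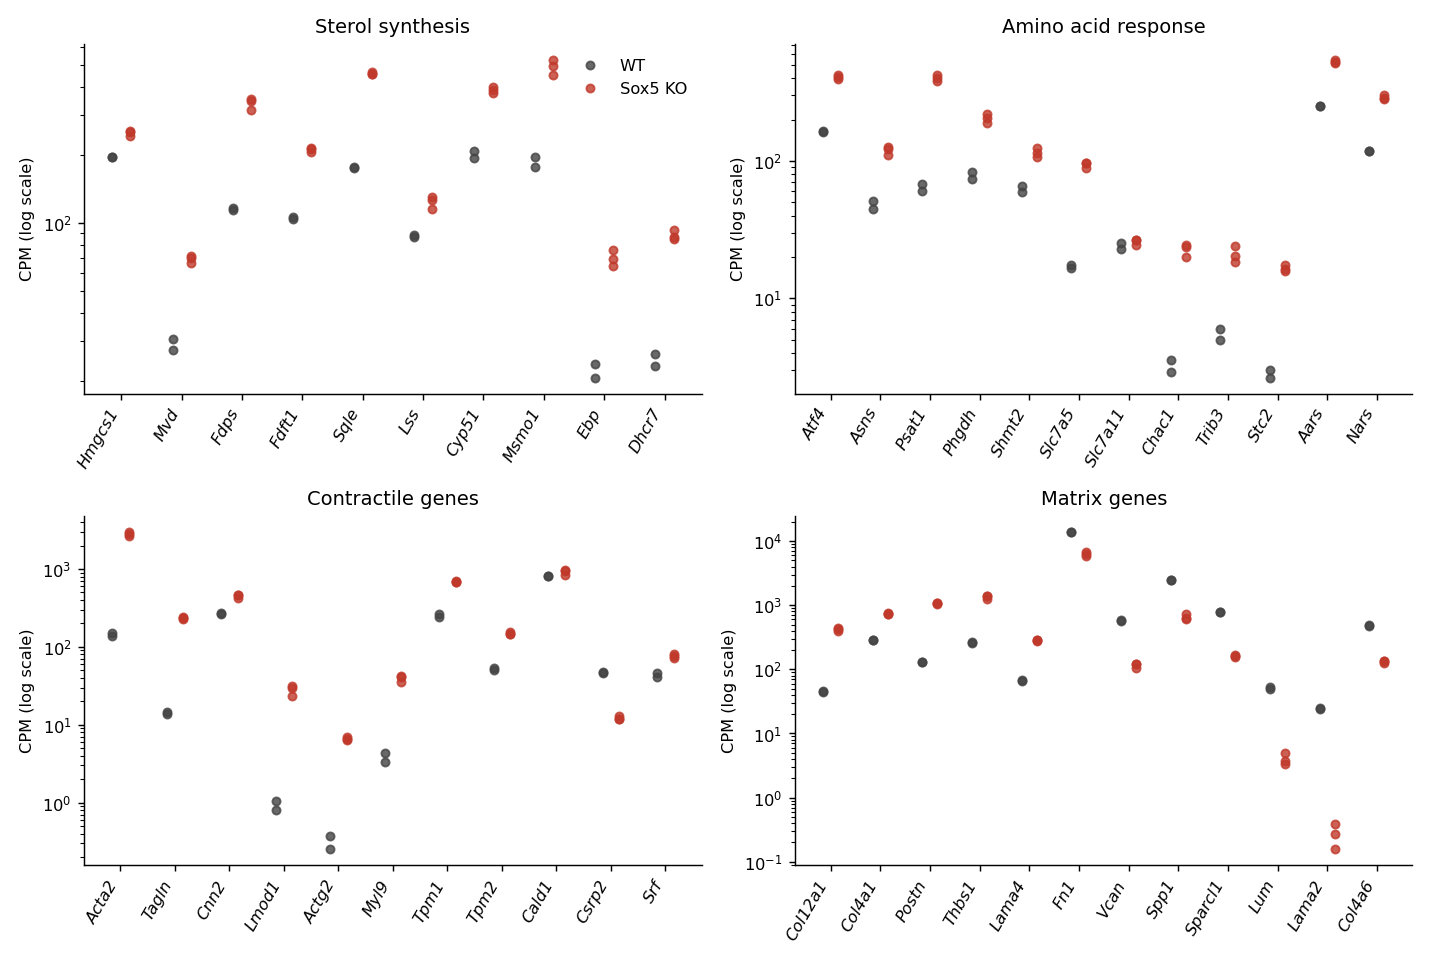
Level of named genes in CPM (y axis, log scale) in the 2 WT libraries (grey) and the 3 Sox5 KO libraries (red), 1 point per library, for 4 gene groups. The sterol, amino acid and contractile genes sit higher in Sox5 KO except Csrp2, with a small difference for Cald1, and Slc7a11 with overlapping points, whereas the matrix panel holds genes of both directions.

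Serum response factor, encoded by Srf, drives many contractile genes through the CArG box. A CArG box lay before the start of 4 of the 21 contractile genes with a promoter, against 1.39% of tested genes and 1.62% of all genes in the table. Windows of 3 of them are shown, with the box in capitals.
Myl9: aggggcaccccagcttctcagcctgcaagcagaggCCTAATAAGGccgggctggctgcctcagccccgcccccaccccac
Vcl: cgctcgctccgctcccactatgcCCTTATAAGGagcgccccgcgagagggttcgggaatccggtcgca
Srf: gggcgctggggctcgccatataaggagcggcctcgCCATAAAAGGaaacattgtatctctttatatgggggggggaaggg
They lie at chr2:156775268-156775347 and chr14:20929148-20929215 (both plus strand) and chr17:46556180-46556259 (minus strand), 161, 227 and 62 bases before the start. Srf holds a further CArG box at the left of its window. Myl9, a myosin light chain, stood at 4.32 and 3.29 CPM in WT and at 41.5, 42.8 and 35.9 CPM in Sox5 KO (log2 fold change 3.40). Vcl, which anchors actin at adhesions, rose by 1.09 log2 units, and Srf stood at 46 and 41.2 CPM in WT and at 80.1, 77 and 71.1 CPM in Sox5 KO (log2 fold change 0.80). All 3 were called, with WT below Sox5 KO in every library.

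The letters AACAAT, a core of the sites that Sox proteins bind, were found on either strand before the start in 6.05% of called-higher and 5.92% of called-lower genes with a promoter, against 6.39% of all tested ones and 10.9% of the whole table. These matches overlapped those of CCAAT in 37 promoters. Neither share was above that of all tested genes. By list, 3 of 21 contractile genes with a promoter held AACAAT, 1 of 16 sterol genes and 1 of 23 ATF4-list genes. CCAAT was not limited to sterol genes: 60.9% of ATF4-list and 52.4% of contractile genes with a promoter held it, against 41% of tested ones.

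Most genes of the cytosolic ribosome were called higher, by a smaller median with the length offset. Of 81 cytosolic ribosomal protein genes, whose median transcript is 1059 bases, 78 were called higher and none lower, with a median log2 fold change of 1.26. With the length offset the counts were 70 and 1 and the median 0.68. Rplp0, of the ribosomal stalk, stood at 1378 and 1412 CPM in WT and at 2256, 2436 and 2129 CPM in Sox5 KO, and its log2 fold change was 0.70 without and 0.21 with the offset. Rps27a, which encodes ubiquitin fused to a ribosomal protein, stood at 68 and 61.4 CPM in WT and at 239.7, 317 and 617 CPM in Sox5 KO, with a wide spread in Sox5 KO. It was called (log2 fold change 2.60) but not with the offset (1.96), nor without WT replicate 1 (2.66), WT replicate 2 (2.52) or Sox5 KO replicate 3 (2.11). Ribosomal protein genes have many processed pseudogenes that can share their reads. Ribosome biogenesis factors had 29 of 42 higher and 5 lower (median 0.40, offset 0.32). Nop56, a snoRNP core protein, rose by 1.05 log2 units, while Polr1a, the largest subunit of RNA polymerase I, fell from 128 ± 1.85 CPM in WT (SD, n = 2) to 69.9 ± 5.42 CPM in Sox5 KO (SD, n = 3), a log2 fold change of -0.87, or -0.26 with the offset.

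Nuclear genes of mitochondrial energy supply were mostly called higher in both fits, while the counts for the mitochondrially encoded genes turned with the offset; a difference between these lists was not tested. Of 77 nuclear genes for respiratory chain and ATP synthase subunits, 75 were called higher and none lower (median 0.93). With the length offset 61 were higher and 2 lower, with a median of 0.45. Cox8a, a subunit of cytochrome oxidase, stood at 123 and 125 CPM in WT and at 369, 449 and 381 CPM in Sox5 KO (log2 fold change 1.69, or 1.04 with the offset). The 13 genes encoded in the mitochondrion had 7 higher and 2 lower, and none higher and 8 lower with the offset, their median moving from 0.23 to -0.46. mt-Nd5, a subunit of complex I, was lower in either fit, at 7038 and 7277 CPM in WT and at 4055, 3845 and 4813 CPM in Sox5 KO (log2 fold change -0.76, or -1.09 with the offset). Its direction did not depend on the offset, whereas that of mt-Co1, of cytochrome oxidase, did (log2 fold change 0.40 and called, against -0.02 and not called). Mitochondrial ribosomal proteins had 61 of 78 higher and 2 lower (0.63), or 40 and 6 with the offset (0.32). The import machinery of the Timm and Tomm families, a group chosen after values were seen, had 16 of 23 higher and none lower (0.56, offset 0.38).

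Proteasome subunits had 30 of 37 higher and 2 lower (median 0.71), and 25 and 5 with the length offset (0.29). Psmd14, the deubiquitinase of the proteasome lid, stood at 37.2 and 38.1 CPM in WT and at 102, 107 and 103 CPM in Sox5 KO and had a log2 fold change of 1.46 (SE 0.0786, edgeR adjusted p = 1.17e-12). The 2 lower members were Psme4, an activator with a long transcript, at a log2 fold change of -0.27 (0.14 with the offset, in the opposite direction), and Psma3 of the core ring, at a log2 fold change of -0.19. Psma3 lies on chromosome 12, relative to which it was at 0.58 and called, and it was not called without WT replicate 1 (-0.20), WT replicate 2 (-0.20), Sox5 KO replicate 1 (-0.18) or Sox5 KO replicate 3 (-0.19). Glycolytic genes had 15 of 21 higher and 2 lower (median 0.48, offset 0.45). Ldha, which makes lactate, stood at 241 and 235 CPM in WT and at 617, 659 and 600.4 CPM in Sox5 KO (log2 fold change 1.40), and Pgk1, an ATP-forming step, at 197 and 205 CPM in WT and at 564, 599 and 542 CPM in Sox5 KO (log2 fold change 1.50). Hk1 and Hk2, the hexokinases that open the pathway, were the 2 lower members, at a log2 fold change of -0.39 and -0.31. Relative to the medians of their chromosomes, 10 and 6, they were at -0.09 and 0.04 and not called, and Hk2 was not called with the offset (-0.03) or without WT replicate 2 (-0.21). Gapdh, a housekeeping enzyme with many pseudogene copies, stood at 10.4 and 9.01 CPM in WT and at 38.1, 25 and 86 CPM in Sox5 KO. It was called (log2 fold change 2.36), but not without WT replicate 1 (2.46), WT replicate 2 (2.26) or Sox5 KO replicate 3 (1.70), nor with the 5 Sox5 KO and WT libraries fitted alone (2.35). Reads of Gapdh may have been lost to its copies, which was not measured, so its level is uncertain.

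Detoxification enzymes rose. Of 33 tested genes that the transcription factor NRF2 is known to drive, 28 were called higher and none lower, with a median of 0.74 (0.64 with the length offset, when 24 were higher and 1 lower). Gsta3, a glutathione S-transferase, stood at 0 and 0.113 CPM in WT and at 40.9, 37.3 and 40.8 CPM in Sox5 KO, and was called (edgeR adjusted p = 3.48e-08). Its fitted log2 fold change of 9.31 became 8.40 without WT replicate 1 and 13.52 without WT replicate 2, so for a gene this close to 0 in WT the levels say more than the fold. Gstm2 and Gsta4, of the same enzyme class, rose by 2.65 log2 units and 2.42 log2 units (2.04 and 1.77 with the offset). Ephx1, an epoxide hydrolase, rose by 1.43 log2 units. Hmox1, which breaks down haem, stood at 98.4 and 105 CPM in WT and at 191, 200.3 and 178 CPM in Sox5 KO (log2 fold change 0.90, or 0.47 with the offset). Txnrd1, a thioredoxin reductase and a classical member, was not called, at a log2 fold change of 0.10, but was called relative to the median of chromosome 10 (0.40). Nqo1, the quinone reductase, was called at a log2 fold change of 0.71 and at 0.26 and not called with the offset. Nfe2l2, which encodes NRF2, was at a log2 fold change of 0.30 and called, and at 0.11 and not called with the offset, nor relative to its chromosome (0.16).

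The next 3 enzyme families were chosen after values were seen. Carboxylesterases, which hydrolyse drugs and lipid esters, had 7 of 10 tested genes higher and none lower. Ces1d stood at 0.0496 and 0.227 CPM in WT and at 262, 240 and 244 CPM in Sox5 KO. Ces1g stood at 0.471 and 1.36 CPM in WT and at 158, 161 and 155 CPM in Sox5 KO. Ces1f stood at 0.273 and 0 CPM in WT and at 33.8, 36.7 and 39.2 CPM in Sox5 KO. All 3 were called (edgeR adjusted p = 4.31e-07, 2.97e-08 and 5.2e-05), from WT levels too near 0 for a stable fold. Ces1d was also high in Xap5 KO, with a mean of 87.7 CPM, and averaged 2.84 CPM in Nono KO. Ces1g averaged 8.29 and 1.93 CPM in these lines, and Ces1f 2.15 and 0.236 CPM. The 3 genes belong to a cluster of close paralogs on chromosome 8, so reads may have been shared among them. Glutathione S-transferases had 14 of 23 higher and 2 lower (median 1.35, offset 0.72), the lower ones being Gstz1 and Gstcd. Gstz1, which acts in tyrosine breakdown, was at a log2 fold change of -1.10, or -0.33 relative to chromosome 12. Gstcd was at a log2 fold change of -0.35, but not called relative to chromosome 3 (-0.12) or without WT replicate 1 (-0.28) or Sox5 KO replicate 1 (-0.29). Aldo-keto reductases had 8 of 12 higher and 1 lower, with Akr1c14, a steroid dehydrogenase, at 7.82 and 6.22 CPM in WT and at 115, 103 and 113 CPM in Sox5 KO (log2 fold change 3.98).

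Inflammatory genes moved in both directions, with rises more frequent. Of 30 tested chemokines and cytokines, 17 were called higher and 6 lower (median 1.19, offset 0.92). Saa3, an acute-phase protein, stood at 34.6 and 27 CPM in WT and at 334, 349 and 331 CPM in Sox5 KO (log2 fold change 3.46, SE 0.132). Ccl9, a chemokine for myeloid cells, rose by 3.44 log2 units. Spp1, osteopontin, stood at 2480.2 and 2441 CPM in WT and at 740, 609.6 and 639.6 CPM in Sox5 KO (log2 fold change -1.89, SE 0.0797). Cxcl12, a chemokine that holds progenitor cells in their niche, stood at 78.2 and 85.3 CPM in WT and at 23.9, 24 and 26.6 CPM in Sox5 KO (log2 fold change -1.72). Both fell in every Sox5 KO library. Of 45 interferon-stimulated genes, 18 were higher and 7 lower (median 0.42, offset 0.29). Bst2, which tethers budding virus, stood at 9.35 and 10.6 CPM in WT and at 45.9, 50.8 and 40.5 CPM in Sox5 KO (log2 fold change 2.20, or 1.54 with the offset). Mx1, an antiviral GTPase, stood at 0.198 and 0 CPM in WT and at 5.29, 6.71 and 4.72 CPM in Sox5 KO and was called (edgeR adjusted p = 0.000178). Gbp2, a guanylate-binding protein, fell from 37.2 ± 0.835 CPM in WT (SD, n = 2) to 13 ± 0.404 CPM in Sox5 KO (SD, n = 3) (log2 fold change -1.52). Among complement genes, 4 of 15 were higher and 5 lower, or 3 and 6 with the offset. C3, the central component, stood at 1272 and 1201 CPM in WT and at 693, 773 and 721 CPM in Sox5 KO (log2 fold change -0.76).

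Of 67 genes of G2 and mitosis, 37 were called higher and 5 lower (median 0.43), and 32 and none with the length offset (0.37). The median was 0.26 without WT replicate 2 and 0.53 without WT replicate 1, and the list summed to 1391 and 1197 CPM in WT and to 1502, 1578 and 1606 CPM in Sox5 KO. Ccnb2, cyclin B2, stood at 3.97 and 2.68 CPM in WT and at 13, 12.6 and 11.2 CPM in Sox5 KO (log2 fold change 1.89, SE 0.221). Birc5, survivin, rose by 1.25 log2 units, and Plk1, the mitotic kinase, by 1.17 log2 units. The proliferation marker Mki67, with a long transcript, was called lower at a log2 fold change of -0.55 but stood at 0.10 and uncalled with the offset. Its call was also lost without WT replicate 1 (-0.45), WT replicate 2 (-0.66), Sox5 KO replicate 1 (-0.48) or Sox5 KO replicate 2 (-0.55), and with no expression filter (-0.56). S phase genes had 19 of 54 higher and 9 lower, or 14 each with the offset. Cyclins D and CDK inhibitors had 4 of 15 higher and 4 lower. Ccnd1, cyclin D1, fell from 251 ± 11.1 CPM in WT (SD, n = 2) to 156 ± 9.58 CPM in Sox5 KO (SD, n = 3) (log2 fold change -0.69). Cdkn1a, the CDK inhibitor p21, rose from 172 ± 3.83 CPM in WT (SD, n = 2) to 285 ± 5.99 CPM in Sox5 KO (SD, n = 3) (log2 fold change 0.72). Histone genes, a family chosen after values were seen and with short transcripts (median 774 bases), had 26 of 53 higher and 2 lower, or 19 and 4 with the offset. H2bc4 stood at 4.47 and 4.33 CPM in WT and at 44.4, 36.1 and 36.4 CPM in Sox5 KO (log2 fold change 3.15, or 2.57 with the offset).

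Of the Sox transcription factors with a mean of at least 1 CPM in the higher group, Sox9 and Sox4 were called lower along with Sox5. Over all tested genes 30.3% were called lower. Of 20 listed members 6 passed the filter, and 4 of these, Sox5 among them, were called lower and 1 higher. Sox9, the master regulator of cartilage, stood at 339.6 and 342 CPM in WT and at 107, 95.5 and 116 CPM in Sox5 KO and had a log2 fold change of -1.68 (SE 0.0755, edgeR adjusted p = 7.42e-14). Sox4, of the SoxC group, stood at 490 and 511 CPM in WT and at 203, 204 and 236 CPM in Sox5 KO (log2 fold change -1.22, SE 0.0786). Sox12, of the same group, was called higher at a log2 fold change of 0.28, but not without WT replicate 2 (0.20), with scaling by library totals alone (0.16) or relative to its chromosome (0.13). Sox6, the usual partner of Sox5, had at most 0.0618 CPM in any of the 5 libraries. Of 29 listed cartilage genes linked to Sox5, 17 passed the filter, 2 were called higher and 5 lower. Sox5 itself and Sox9 are members of this list and are counted among the 5 lower. Trps1, a GATA-type repressor, stood at 82.4 and 74.6 CPM in WT and at 23.2, 25.3 and 27.4 CPM in Sox5 KO (log2 fold change -1.63, or -0.96 with the length offset). Col2a1, the collagen of cartilage, stood at 0.992 and 1.52 CPM in WT and at 11.3, 10.3 and 12 CPM in Sox5 KO and had a log2 fold change of 3.15 (SE 0.792, edgeR adjusted p = 0.00731), and was not called without WT replicate 1 (2.87). Col11a1, another cartilage collagen, had a WT mean of 1.86 CPM and no counts in Sox5 KO, at least 57.6-fold lower with a floor of 3 counts over the group.

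Homeobox genes of the Hox clusters, which record position along the body, had 9 of 22 lower and 4 higher, with a median of -0.51 (-0.81 with the offset). Hoxa3 stood at 66.2 and 64 CPM in WT and at 13.6, 9.86 and 13.7 CPM in Sox5 KO (log2 fold change -2.39). Hoxa10 was at 2.6 CPM in WT and 0 in Sox5 KO (at least 80.8-fold lower). Hoxc6 rose by 0.99 log2 units. Both lower examples belong to the HoxA cluster on chromosome 6 and the higher one to HoxC on chromosome 15.

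Zinc finger genes, taken after values were seen as those named Zfp, Zkscan or Zscan, had 198 of 387 called lower and 24 higher. The median was -0.38, and with the length offset 163 were lower, 35 higher and the median -0.28. Their median transcript of 3566 bases is close to that of all tested genes, 3376 bases. Zfp618 stood at 57 and 60.2 CPM in WT and at 6.56, 7.22 and 8.17 CPM in Sox5 KO (log2 fold change -3.00, SE 0.0964, or -2.41 with the offset). Many of these genes are close paralogs, and reads shared among them are uncertain.

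Chromatin regulators had 49 of 64 genes lower and 6 higher, with a median of -0.58. These genes have long transcripts, with a median of 7840 bases, and with the length offset 28 were lower, 20 higher and the median -0.08. Kmt2d, a histone H3 lysine methyltransferase, stood at 284 and 292 CPM in WT and at 80.1, 95.6 and 97.3 CPM in Sox5 KO, and its log2 fold change was -1.66 without and -0.64 with the offset. Chd4, the motor of the NuRD complex, stood at 477 and 478 CPM in WT and at 218, 247 and 239.7 CPM in Sox5 KO (log2 fold change -1.02, or -0.59 with the offset). Chd7, a remodeller of enhancers, rose from 0.99 ± 0.172 CPM in WT (SD, n = 2) to 5.25 ± 1.49 CPM in Sox5 KO (SD, n = 3) (log2 fold change 2.40, or 3.05 with the offset). The group's fall thus shrank with the offset, while these 3 members kept their direction and call.

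In the lists of developmental pathways more genes were called lower than higher, by smaller medians with the length offset. These offset medians ran from -0.48 for BMP and TGF-beta genes to -0.04 for Hedgehog genes. Among all tested genes, 26.6% were called lower and 29.8% higher with the offset. In the BMP and TGF-beta list, 24 of 42 genes were called lower and 7 higher (median -0.65), or 23 and 11 with the length offset (-0.48). The secreted antagonist Grem1, which binds and blocks BMPs, stood at 129 and 132 CPM in WT and had no count in Sox5 KO, at least 4059-fold lower. Grem1 was also low in the other knockouts, with means of 0.448 CPM in Xap5 KO and 0 CPM in Nono KO. Of known targets of BMP signalling, Id2 stood at 49.5 and 51.8 CPM in WT and at 8.16, 8.81 and 7.72 CPM in Sox5 KO (log2 fold change -2.62, or -1.85 relative to chromosome 12). Smad6, an inhibitory Smad, stood at 28.6 and 31.6 CPM in WT and at 9.59, 7.73 and 7.78 CPM in Sox5 KO (log2 fold change -1.84).

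In the Wnt list, 17 of 35 were lower and 7 higher (median -0.48, offset -0.24). The ligand Wnt5a stood at 15.7 and 20.2 CPM in WT and at 3.68, 4.03 and 3.83 CPM in Sox5 KO (log2 fold change -2.22). Lgr6, a receptor for R-spondins, stood at 18.8 and 18.3 CPM in WT and at 1.92, 2 and 2.3 CPM in Sox5 KO (log2 fold change -3.16). The secreted antagonist Sfrp1 rose from 38.3 ± 2.06 CPM in WT (SD, n = 2) to 167 ± 12.1 CPM in Sox5 KO (SD, n = 3) (log2 fold change 2.13). Receptor tyrosine kinases had 19 of 33 lower and 3 higher, but 13 and 7 with the length offset, and the median went from -0.52 to -0.13. Pdgfra, the PDGF receptor of fibroblasts, stood at 903 and 865 CPM in WT and at 421, 443 and 433 CPM in Sox5 KO (log2 fold change -1.03, or -0.61 with the offset). Egfr, the EGF receptor, fell from 5.29 ± 0.652 CPM in WT (SD, n = 2) to 0.165 ± 0.151 CPM in Sox5 KO (SD, n = 3). Semaphorins, plexins, slits and netrins, which steer axons and cells, had 20 of 37 lower and 5 higher, or 14 and 7 with the offset. The median of this list went from -0.68 to -0.15 with the offset. Plxna4, a semaphorin receptor, stood at 62.1 and 72.7 CPM in WT and at 1.52, 2.27 and 2.11 CPM in Sox5 KO (log2 fold change -5.10, or -4.35 with the offset). Slit3, a repellent ligand, rose from 93.2 ± 3.94 CPM in WT (SD, n = 2) to 285 ± 23 CPM in Sox5 KO (SD, n = 3) (log2 fold change 1.61). Notch genes had 12 of 25 lower and 4 higher (median -0.30), or 8 and 3 with the offset (-0.06). The receptor Notch2 stood at 202 and 219 CPM in WT and at 64.6, 66.9 and 65.6 CPM in Sox5 KO (log2 fold change -1.68, or -0.98 with the offset).

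Immediate-early genes, the first to respond to growth factors, had 15 of 32 lower and 6 higher (median -0.37, offset -0.45). Jun, a subunit of AP-1, stood at 346 and 347 CPM in WT and at 94.4, 95.9 and 105 CPM in Sox5 KO and had a log2 fold change of -1.82 (SE 0.0672, edgeR adjusted p = 3.51e-15). Its partner Fos, on chromosome 12, fell from 2.23 ± 0.765 CPM in WT (SD, n = 2) to 0.451 ± 0.282 CPM in Sox5 KO (SD, n = 3) (log2 fold change -2.30, or -1.52 relative to the chromosome). Dusp1, a phosphatase of MAP kinases, rose from 24.2 ± 0.552 CPM in WT (SD, n = 2) to 55.4 ± 4.59 CPM in Sox5 KO (SD, n = 3) (log2 fold change 1.20).

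Genes of the primary cilium had 45 of 100 called lower and 21 higher, with a median of -0.13. With the length offset 40 were lower and 13 higher and the median was -0.15. Cep290, of the transition zone at the cilium base, stood at 31.9 and 29.3 CPM in WT and at 8.01, 6.78 and 8.32 CPM in Sox5 KO (log2 fold change -1.99, SE 0.117). Dync2h1, the motor of retrograde transport, fell from 47.7 ± 0.554 CPM in WT (SD, n = 2) to 17.1 ± 2.08 CPM in Sox5 KO (SD, n = 3) (log2 fold change -1.48, or -0.66 with the offset). Ttc8 of the BBSome and Wdr35 of intraflagellar transport complex A fell by 1.40 and 1.39, but lie on chromosome 12 and were at -0.62 and -0.62 relative to it, still called. Ift20, a short transcript of complex B, rose from 17.1 ± 0.269 CPM in WT (SD, n = 2) to 37.4 ± 2.22 CPM in Sox5 KO (SD, n = 3) (log2 fold change 1.13, or 0.55 with the offset). Hedgehog genes, whose signal passes through the cilium, had 12 of 24 lower and 4 higher (median -0.28), or 9 and 4 with the offset (-0.04). Gas1, a co-receptor, stood at 949 and 933 CPM in WT and at 531, 479.6 and 525 CPM in Sox5 KO (log2 fold change -0.88).

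Matrix genes moved in both directions. Of 35 collagens, 14 were called higher and 12 lower, with a median of -0.29. Collagen transcripts are long (median 6048 bases), and with the length offset 18 were higher, 8 lower and the median 0.35. The median was -0.01 without WT replicate 1, -0.14 without Sox5 KO replicate 1 and -0.16 without Sox5 KO replicate 3. Col12a1, which sits on collagen fibrils, stood at 46.2 and 43.7 CPM in WT and at 400, 443 and 432 CPM in Sox5 KO and had a log2 fold change of 3.24 (SE 0.0886, edgeR adjusted p = 4.42e-17), or 3.95 with the offset. Col4a1, of the basement membrane, stood at 288 and 289 CPM in WT and at 738, 731 and 747 CPM in Sox5 KO (log2 fold change 1.36). Col4a6, another basement membrane chain, stood at 482 and 494 CPM in WT and at 127, 135 and 135 CPM in Sox5 KO (log2 fold change -1.88). Chains of the same collagen type thus went opposite ways, each with no overlap between groups. Col1a2, of the main fibrillar collagen, rose by 0.63 log2 units and Col1a1, its partner chain, by 0.70.

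Among matricellular glycoproteins, 9 of 22 were higher and 9 lower, or 11 and 7 with the length offset. Postn, periostin, stood at 131 and 128 CPM in WT and at 1054, 1083 and 1093 CPM in Sox5 KO (log2 fold change 3.06, SE 0.0772). Thbs1, thrombospondin, stood at 267 and 255 CPM in WT and at 1237, 1385 and 1409 CPM in Sox5 KO (log2 fold change 2.36, SE 0.0739). Fn1, fibronectin, stood at 13898 and 14023 CPM in WT and at 5758, 6404 and 6734 CPM in Sox5 KO (log2 fold change -1.15, or -0.57 with the offset). Sparcl1, a relative of the collagen-binding protein SPARC, fell from 781 ± 13.2 CPM in WT (SD, n = 2) to 163 ± 6.94 CPM in Sox5 KO (SD, n = 3) (log2 fold change -2.26). Of 29 proteoglycans 11 were higher and 11 lower (median -0.48), or 13 and 9 with the offset (0.09). Vcan, versican, stood at 585 and 576 CPM in WT and at 105, 119.9 and 122 CPM in Sox5 KO (log2 fold change -2.33, or -1.56 with the offset). Lum, lumican, stood at 49.5 and 53 CPM in WT and at 3.74, 4.91 and 3.29 CPM in Sox5 KO (log2 fold change -3.69). Ogn, osteoglycin, rose from 12.5 ± 0.668 CPM in WT (SD, n = 2) to 42.9 ± 4.06 CPM in Sox5 KO (SD, n = 3) (log2 fold change 1.78). Integrins and laminins had 10 of 28 higher and 9 lower, or 12 and 6 with the offset. The laminin chain Lama4 rose from 67.4 ± 1.83 CPM in WT (SD, n = 2) to 282 ± 9.74 CPM in Sox5 KO (SD, n = 3) (log2 fold change 2.06), and the chain Lama2 fell from 24.6 ± 0.196 CPM in WT (SD, n = 2) to 0.269 ± 0.114 CPM in Sox5 KO (SD, n = 3).

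Metalloproteinases and their inhibitors had 11 of 30 higher and 10 lower, or 10 and 11 with the length offset. Mmp3, stromelysin, had no count in either WT library and stood at 68.9, 67.2 and 65.5 CPM in Sox5 KO, at least 1889-fold higher. Mmp3 was also high in the other knockouts, with means of 98.3 CPM in Xap5 KO and 23.3 CPM in Nono KO. Mmp2, a gelatinase, stood at 904 and 879 CPM in WT and at 2058, 2177 and 2011 CPM in Sox5 KO (log2 fold change 1.22). The inhibitor Timp3 stood at 480 and 486 CPM in WT and at 208, 198 and 209.7 CPM in Sox5 KO (log2 fold change -1.24, SE 0.0547). Elastic fibre genes had 9 of 20 higher and 8 lower, or 10 and 6 with the offset. Mfap5, a microfibril protein, was up by 2.44 log2 units. Ltbp2, a latent TGF-beta binding protein on chromosome 12, was at a log2 fold change of -1.99, or -1.21 relative to the chromosome.

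Clustered protocadherins, cell-surface recognition proteins chosen as a family after values were seen, had 25 of 48 lower and 4 higher. The median was -0.83, or -0.63 with the length offset. Pcdhgb4 stood at 11.4 and 11 CPM in WT and at 0, 0.102 and 0.0319 CPM in Sox5 KO. Pcdhgc3 stood at 941 and 961 CPM in WT and at 926, 944 and 963 CPM in Sox5 KO, overlapping between groups and not called. Genes of some of these clusters share their last exons, so the split of reads among them is uncertain.

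**Figure D4:**
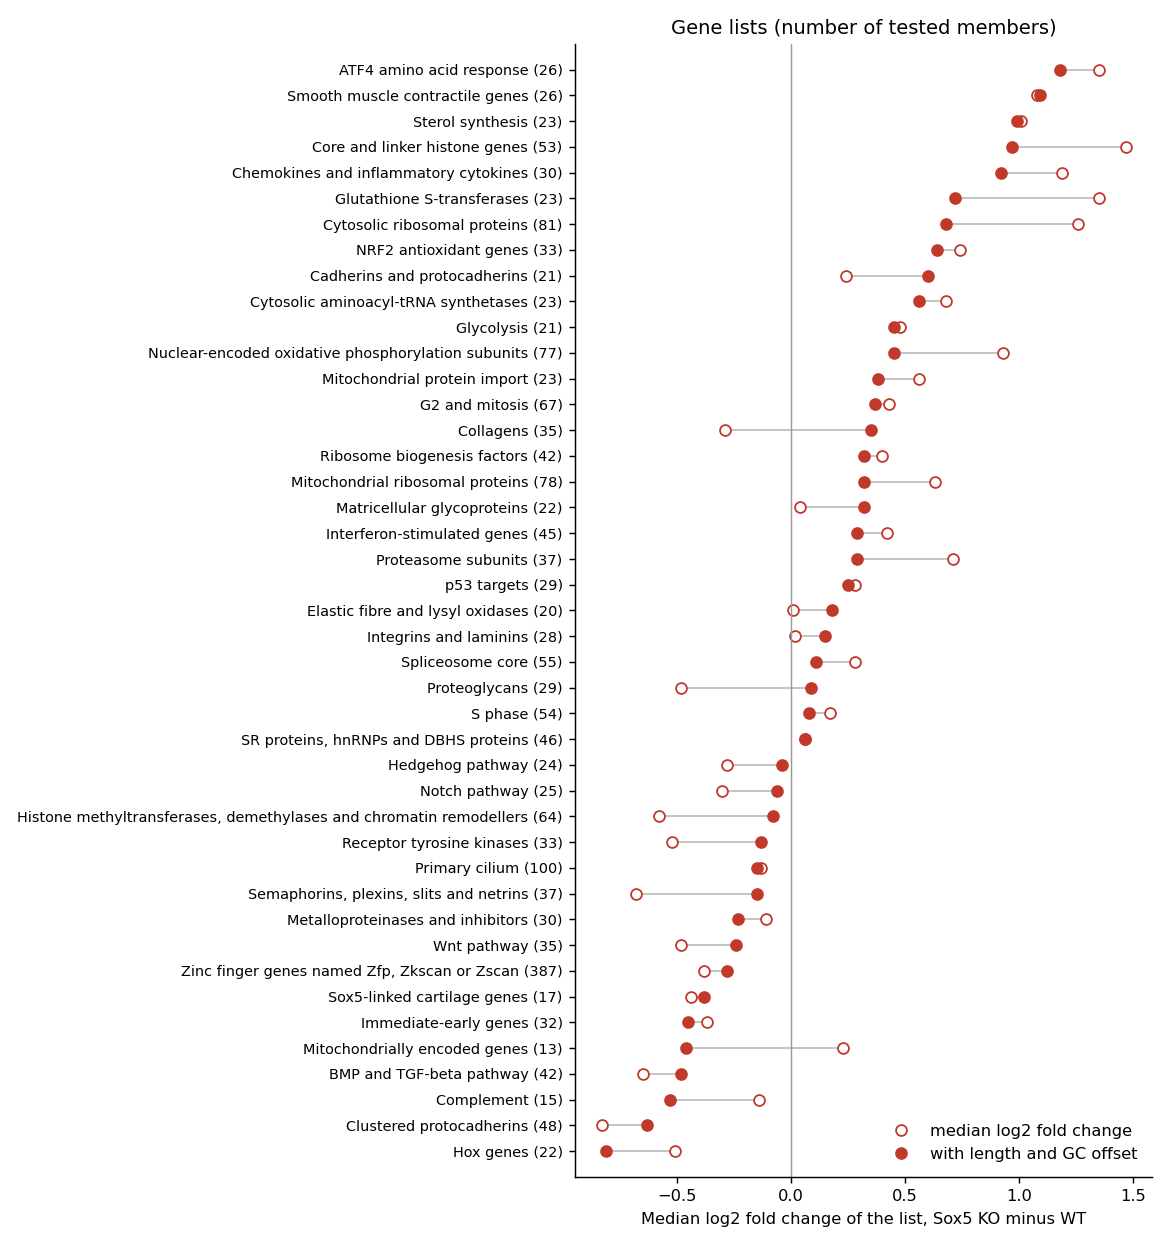
Median log2 fold change of gene lists, Sox5 KO minus WT (x axis), without (open circles) and with (filled circles) the offset for length and GC content. Only lists with at least 13 tested members are drawn. The lists of cyclins D, the circadian clock, imprinted genes and lysosomal genes are left out. Lists are sorted by the value with the offset, and the number of tested members is in parentheses. Sterol, contractile and ATF4 lists stay near 1 in either fit, while chromatin regulators, collagens and mitochondrially encoded genes move by about 0.5 or more.

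Most of the remaining lists held both directions. Lysosomal genes had 21 of 45 higher and 13 lower: Ctsd, a cathepsin, rose from 715 ± 1.36 CPM in WT (SD, n = 2) to 1462 ± 79.4 CPM in Sox5 KO (SD, n = 3) (log2 fold change 1.03). Targets of p53 had 15 of 29 higher and 7 lower: Bax, which opens mitochondria in cell death, stood at 91.3 and 90.6 CPM in WT and at 213, 210.1 and 195 CPM in Sox5 KO (log2 fold change 1.18), and Trp53inp1, a stress protein, at 191 and 200 CPM in WT and at 66.5, 71.8 and 81.4 CPM in Sox5 KO (log2 fold change -1.42). Core spliceosome genes had 29 of 55 higher and 9 lower (median 0.28), or 21 and 8 with the offset (0.11). The list of SR proteins, hnRNPs and DBHS proteins had 19 of 46 higher and 11 lower. Its median was 0.06, and lay between 0.02 and 0.11 without single libraries. Cadherins and other protocadherins, with long transcripts (median 8785 bases), had 5 of 21 higher and 6 lower (median 0.24). With the length offset 10 were higher and 5 lower (median 0.6). Cdh11, the cadherin of mesenchyme, rose from 65.7 ± 0.0131 CPM in WT (SD, n = 2) to 189 ± 5.64 CPM in Sox5 KO (SD, n = 3) (log2 fold change 1.53). Cdh2, N-cadherin, fell from 136 ± 9.24 CPM in WT (SD, n = 2) to 80.4 ± 1.2 CPM in Sox5 KO (SD, n = 3) (log2 fold change -0.76). Circadian clock genes had 8 of 22 higher and 3 lower. Hlf, a bZIP factor under clock control, stood at 1.14 and 0.726 CPM in WT and at 44.6, 40.2 and 43 CPM in Sox5 KO (log2 fold change 5.52, SE 0.188), while Clock itself fell from 80.5 ± 0.916 CPM in WT (SD, n = 2) to 42 ± 2.7 CPM in Sox5 KO (SD, n = 3) (log2 fold change -0.94, or -0.27 with the offset). Imprinted genes had 5 of 20 higher and 9 lower (median -0.16), or 6 and 6 with the offset (0.05). Peg3, a zinc finger protein, stood at 105 and 95.3 CPM in WT and at 189, 207 and 213 CPM in Sox5 KO (log2 fold change 1.02). The cytosolic chaperonin, which folds actin and tubulin and was added after values were seen, had 8 of 9 subunits higher and none lower, with Cct5 at 218 and 202 CPM in WT and at 333, 342 and 302 CPM in Sox5 KO (log2 fold change 0.63). Of 6 osteoblast markers 4 were tested, none was higher and 1, Dmp1, was lower, and of 7 skeletal muscle markers 2 were tested and 1 was higher.

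Many of the largest changes were in genes nearly off in 1 group, for which levels are given in place of folds. Igf2, insulin-like growth factor 2, stood at 3.42 and 0.635 CPM in WT and at 201, 244 and 246 CPM in Sox5 KO (edgeR adjusted p = 7.63e-06). Igfbp5, an IGF-binding protein, stood at 0.67 and 0.0908 CPM in WT and at 42.1, 52.1 and 45.7 CPM in Sox5 KO (edgeR adjusted p = 3.07e-06). Scg2, secretogranin II, stood at 0.0496 and 0.658 CPM in WT and at 51.7, 45.9 and 49.2 CPM in Sox5 KO (edgeR adjusted p = 3.85e-07). WT levels of these 3 genes were low and unequal between both libraries, and every Sox5 KO library was far above them. Abcg1, a sterol exporter, reached a mean of 9.99 CPM from 0.0454, and Ncf4, a subunit of the phagocyte oxidase, 23.2 CPM from 0.12. Ccdc85a, Ggt5, Brinp3, Nxf3, Olfml1 and 3830403N18Rik, also named by size, had Sox5 KO means of 16.5, 11.6, 58.7, 46.4, 8.31 and 61.9 CPM, with WT means of at most 0.706 CPM. Some of these rises were seen in the other knockouts too. Igf2 averaged 47.9 CPM in Xap5 KO and 38.2 in Nono KO, above WT but below Sox5 KO. Ccdc85a averaged 10.4 CPM in Xap5 KO and 9.07 in Nono KO, and Olfml1 12.6 and 9.38. Scg2 averaged 7.12 CPM in Xap5 KO and 61.2 in Nono KO. Others were not: Abcg1 averaged 0.0992 CPM in Xap5 KO and 0 in Nono KO, and Nxf3 1.05 and 0.0487.

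From no count in WT rose Hpse2, a heparanase relative (at least 887-fold), Ptpn20, a tyrosine phosphatase (at least 295-fold), and Agtr2, the angiotensin II type 2 receptor (at least 206-fold). Vmn1r233, a vomeronasal receptor, and Stc1, a secreted glycoprotein, rose likewise (at least 176-fold and 142-fold). The Sox5 KO means of these 5 were 31.6, 10.5, 7.34, 6.26 and 5.05 CPM. Ms4a4d, Glipr1 and Slc10a6 had 3 counts each over both WT libraries, and their CPM ratios to WT were 1794 (614 to 8698), 877 (300 to 4251) and 361 (124 to 1751) (95% Poisson intervals, counting error only). Ms4a4d was also high in the other knockouts, at means of 64.3 CPM in Xap5 KO and 25 in Nono KO. Glipr1 was not, at 0.271 and 0.424 CPM, and Hpse2 stood at 0 in both.

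Falls of this size included adhesion and matrix genes. Edil3, an integrin ligand in the matrix, stood at 121 and 113 CPM in WT and at 0, 0.203 and 0 CPM in Sox5 KO (edgeR adjusted p = 3.74e-12). Gpc4, a glypican that binds growth factors, stood at 35 and 32.4 CPM in WT and at 0.0618, 0.237 and 0 CPM in Sox5 KO. Tnfrsf11b, osteoprotegerin, stood at 15.1 and 11.2 CPM in WT and at 0, 0.136 and 0.128 CPM in Sox5 KO. All 3 went to near 0 in each Sox5 KO library. Camk1d, a calcium-dependent kinase, fell from 41 ± 1.81 CPM in WT (SD, n = 2) to 0.44 ± 0.00683 CPM in Sox5 KO (SD, n = 3). Naalad2, Cdh19, Tmcc3, Fgd4, Map2, Fam135b, Phactr2, Tnik and Cd24a, also named by size, had WT means of 62.9, 5.53, 5.52, 8, 11.6, 19.5, 11.7, 6.63 and 18.3 CPM, against at most 0.563 CPM in Sox5 KO. To no count fell Ace, angiotensin-converting enzyme (at least 1054-fold), Crabp1, a retinoic acid binding protein (at least 749.7-fold), Plscr4, a scramblase (at least 515-fold), and Adgrg6, an adhesion receptor (at least 383-fold). Osbpl6, an oxysterol-binding relative, fell from 11.3 ± 0.0883 CPM in WT (SD, n = 2) to 0.0439 ± 0.038 CPM in Sox5 KO (SD, n = 3). Some of these falls were seen in the other knockouts too. Cd24a averaged 0.0515 CPM in Xap5 KO and 0.18 in Nono KO, and Adgrg6 0.23 and 0.183. Others were not: Plscr4 averaged 12.9 CPM in Xap5 KO and 20.1 in Nono KO, and Osbpl6 10.4 and 8.95. The Y-linked Ddx3y, Uty and Kdm5d had no count in Sox5 KO, and Eif2s3y had 2 there.

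Dlk1, an imprinted Notch-like protein of chromosome 12 made by preadipocytes, stood at 1590 and 1519 CPM in WT and at 207, 189.9 and 201 CPM in Sox5 KO and had a log2 fold change of -2.96 (SE 0.0611, edgeR adjusted p = 7.58e-19) and -2.19 relative to its chromosome. It was called in either fit.

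Where Sox5 KO stood apart from the other knockouts was tested directly, gene by gene in the same edgeR fit, without the length offset. Against Xap5 KO, 30.4% of tested genes were called higher in Sox5 KO and 31.1% lower, and against Nono KO 32.6% and 30.9%. Ribosomal protein genes were higher in Sox5 KO than in Xap5 KO for 81 of 81 and than in Nono KO for 75 of 81, with none lower. These genes are short (median 1059 bases), and the mean slope on length was -0.36 in Sox5 KO against -0.08 in each other line. The part of the length trend in the counts against the other knockouts was not tested. Of 33 NRF2 genes, 27 were higher and 1 lower against Xap5 KO, and 26 and 2 against Nono KO. Of 23 sterol genes, 20 were higher and 2 lower against Xap5 KO, and 13 and 5 against Nono KO. The ATF4 list was higher than in Xap5 KO for 20 of 26 and lower for 5, and against Nono KO 3 were higher and 9 lower. Contractile genes were higher than in Xap5 KO for 12 of 26 and lower for 6, and against Nono KO 4 were higher and 16 lower. The comparisons share the Sox5 KO libraries and are given side by side.

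Named genes gave these levels. Gsta3 averaged 39.7 CPM in Sox5 KO, 2.7 in Xap5 KO and 1.77 in Nono KO. Hmox1 averaged 189.7 CPM in Sox5 KO, 63.7 in Xap5 KO and 76.1 in Nono KO. Dhcr7 averaged 88.4 CPM in Sox5 KO, 40.9 in Xap5 KO and 44.3 in Nono KO. For these 3 genes each difference of Sox5 KO from another knockout was called. Atf4 averaged 243 CPM in Xap5 KO and 389 in Nono KO, and its difference between Sox5 KO and Nono KO was not called. Edil3 averaged 19.2 CPM in Xap5 KO and 105 in Nono KO, and its difference from Sox5 KO was called against both.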

How the data were processed

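RNA-seq was analysed in NIH/3T3 cells kept without serum for 24 h. The authors deposited whole-number estimated counts per gene for 11 libraries, from which 2 WT and 3 Sox5 KO libraries were compared and 6 of the other knockouts shared the estimate of spread. HISAT2 2.1.0, StringTie 1.3.3b, DESeq2 1.12.4 and the builds GRCm39 and mm39 are named, per the submitters' processing notes. The annotation, filters and strand setting of the counting are not given in the sources used here. Short genes can be over- or undercounted by library size selection, which counts per gene do not show.

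Genes with at least 10 counts in enough libraries and 15 in all were kept (13332 of 21684). edgeR 4.0.16 in R 4.3.3 fitted 1 mean per group with TMM scaling, and its robust quasi-likelihood test gave p-values adjusted by Benjamini and Hochberg, called under 0.05. The common biological coefficient of variation was 10.6%, and a tested gene had a median of 1002 counts over the 5 libraries. The procedure was tested on simulated data for this comparison (13332 genes): 59.7% of genes changed by 0.5 log2 units, 89.6% of those changed by 1 and 100% of those changed by 2 were called, with 4 false calls among 13132 unchanged genes. The simulation left out genes of few counts when choosing those to change, and it held no length trend or chromosome shift. In the real data 60.9% of genes were called, so these rates need not hold there.

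Of the identifiers, 21540 matched the GENCODE M21 annotation of GRCm38, whose longest transcript gave length and GC content for 13293 tested genes, and the offset fitted a spline with 5 degrees of freedom to each. The lists and added families were chosen with earlier results of these data known. Named genes are Sox5, Fam50a and Nono, the 15 largest rises and falls called in both fits and without each library with a mean of at least 5 CPM, up to 10 each way with at most 3 counts in 1 group, and per list up to 4 called members each way, the most abundant member and the gene the list is named for. Cnn1, Ddit3, Hmox1, Lpl, Msmo1, Mvd, Myl9, Nqo1, Nupr1, Pycr1, Slc7a11, Sox6, Sqle, Srf, Tagln, Txnrd1 and Vcl, the motifs and the printed promoters were chosen after values were seen. Some items are not reported here. Replicates of a group differed by more than sampling noise (chi-square per gene 9.22 in WT and 12.58 to 15.9 in Sox5 KO), so none was taken for the same library deposited again. Each library counts as 1 replicate, which does not show that they were separate cultures.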

Additional observations from a re-analysis of the deposited data

How the results depend on the processing

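The counts of 4079 higher and 4042 lower genes became 1106 and 1183 when a change of at least 2-fold was required. With library totals in place of TMM scaling they were 3340 and 4798, the share of calls that were higher moved from 50.2% to 41%, and the median over all genes moved to -0.12. DESeq2 called 4132 and 4019. Without single libraries the counts ranged from 3383 to 3882 and from 3483 to 3796, and the log2 fold change of Sox5 from -1.89 to -1.78. The slope on transcript length of -0.38 ranged from -0.44 (without WT replicate 1) to -0.37, and was -0.03 with the offset for length and GC content, -0.23 on the median transcript length and -0.13 on the genomic span. The longest transcript of an annotation need not be the one made in these cells, and the cause of the smaller slopes was not tested.

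Replicate numbers did not pair the samples: deviations from the group means correlated at 0.02 for equal numbers. With the replicate number as a block the counts were 3997 and 3914, the slope -0.39 and the log2 fold change of Sox5 -1.83. Of the named genes, Gapdh (2.28), Mki67 (-0.48), Psma3 (-0.19) and Cnn1 (-2.69) were not called with it.

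Among named genes, the direction turned with the length offset for Ddit3 (-0.06), Mki67 (0.10), Psme4 (0.14) and mt-Co1 (-0.02). It turned relative to the chromosome median for Hk2 (0.04), Psma3 (0.58) and Wars1 (0.11). With 2 WT libraries, leaving 1 out assumes that the other varies like the remaining groups, and changes under 1 log2 unit in genes of few counts are the least certain.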
